A study of Arabidopsis thaliana with 12 samples.

Results

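The genes described here belong to families through which plants make, read or inactivate auxin and cytokinin, 2 hormones that set growth and patterning in seedlings. They are the probe sets that the platform annotation gives to exactly 1 gene whose symbol begins with IAA, ARF, SAUR, GH3, PIN, GA2OX, GA3OX, GA20OX, ARR, AHK, AHP, IPT or CKX, plus AT1G48660 of the GH3 family. The rule found 13 of 22746 probe sets: 7 Aux/IAA genes, 5 GH3 genes and 1 cytokinin response regulator. Gibberellin oxidases, the third intended family, had 0 members, so gibberellin is described below only from receptor and signalling genes outside the families. AT1G48660 was added to the rule because of its response to sucrose, so its sucrose values are a description.

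Transcripts of entire Arabidopsis thaliana seedlings were profiled with 12 ATH1 arrays from Affymetrix, 3 in each of 4 groups: acn1-2 with sucrose, Col-7 with sucrose, acn1-2 untreated and Col-7 untreated. Both lines share the Col-7 ecotype, and acn1-2 is 1 line with a T-DNA insert in AT3G16910, the gene of ACN1, an enzyme that activates acetate. Sucrose was given at 100 mM, and seedlings of every group were raised to growth stage 0.7 on MS agar, at 20 °C under continual light, after 4 days of cold stratification. The design text speaks of pools of 1000 seedlings, and whether replicates came from separate cultures is not stated, so the p-values reflect array-to-array spread that may be technical. The annotation used here named 0 probe sets for AT3G16910, so the insertion was not checked on its own transcript.

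Auxin is sensed when it bridges a TIR1/AFB receptor and an Aux/IAA protein, which marks that repressor for destruction and frees the auxin response factors it held. GH3 enzymes close the loop by joining the hormone to amino acids, which stores or inactivates it, and many GH3 genes are themselves induced by auxin. Cytokinin acts through a relay from histidine kinases to response regulators, and A-type regulators such as ARR15 are induced by cytokinin and dampen the pathway. Aux/IAA genes differ in kind: IAA18 carries the degron that the receptor grips, whereas IAA20, IAA30, IAA33 and IAA34 lack it.

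Values are intensities on a linear scale that the authors had scaled to a common trimmed mean of 100.0. Intensities at or under 14.4, the pooled 25th percentile, were treated as a floor below which values have no order. A probe set entered the test if its 12 values averaged at least 29.1, which is the 40th percentile of all pooled values. Of the 13 members 6 were tested: GH3.3, GH3.17, GH3.9, AT1G48660, IAA18 and IAA34. IAA34, at a mean of 29.2, and AT1G48660 passed only through their sucrose arrays. GH3.9, whose sucrose arrays averaged 26.9 in acn1-2 and 31.3 in Col-7, passed through its untreated arrays, which averaged 44.2 and 41.0. Counts over the tested members, here and in the closing section, therefore describe them and support nothing. Levels are not compared between genes, because probe sets differ in brightness for the same amount of RNA.

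The sucrose differences of the 5 tested members chosen by symbol went in both directions, and each gene had the same sign in both lines. GH3.3 and IAA34 rose in both lines, IAA18 and GH3.17 fell in both, and GH3.9 fell in acn1-2. In acn1-2 2 rose, 3 fell and 0 missed the limma threshold of an adjusted p under 0.05. In Col-7 2 rose, 2 fell and GH3.9 missed it. Across all 13764 probe sets tested, 56.9% were called for sucrose in acn1-2 (27.4% higher, 29.6% lower) and 50.2% in Col-7 (25.9% higher, 24.3% lower), so being called is common in these comparisons. The median log2 difference of the 5 was -0.56 in acn1-2 (the value of GH3.17) and -0.40 in Col-7 (that of GH3.9). Over all tested probe sets it was -0.04 and 0.00. With members moving both ways, the median of the 5 describes no shared shift.

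GH3.3, an auxin-inducible enzyme that conjugates indole-3-acetic acid, was higher with sucrose. Its intensity was 136.0, 133.2 and 146.5 in acn1-2 with sucrose, against 70.8, 85.0 and 61.9 in untreated acn1-2. In Col-7 it was 107.5, 129.8 and 154.8 with sucrose, against 62.7, 77.1 and 102.4 untreated. Sucrose and untreated arrays did not overlap in either line, although in Col-7 the lowest sucrose array and the highest untreated array lay close together. The log2 difference was 0.94 in acn1-2 (SE 0.18, limma adjusted p 0.000671) and 0.71 in Col-7 (SE 0.18, adjusted p 0.00553).

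GH3.17, which joins auxin to glutamate, moved the other way. It stood at 161.6, 148.5 and 148.6 in acn1-2 with sucrose, against 221.7, 221.7 and 233.0 in untreated acn1-2. The Col-7 values were 169.4, 144.8 and 128.1 with sucrose, against 191.7, 193.0 and 231.9 untreated. All sucrose arrays lay below all untreated arrays within each line. GH3.17 fell by 0.56 on the log2 scale in acn1-2 (SE 0.12, limma adjusted p 0.00128) and fell by 0.48 in Col-7 (SE 0.12, adjusted p 0.0041). Thus GH3 genes of one enzyme family had opposite signs on the same arrays.

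GH3.9, another GH3 gene of the auxin-conjugating group, had lower values with sucrose. Intensities were 34.1, 25.2 and 21.4 in acn1-2 with sucrose, against 39.7, 43.9 and 48.9 in untreated acn1-2. They were 31.7, 36.9 and 25.2 in Col-7 with sucrose, against 36.8, 43.6 and 42.6 in untreated Col-7. The groups were apart in acn1-2 and touched in Col-7, where 1 sucrose array reached just above the lowest untreated one. GH3.9 fell by 0.74 in acn1-2 (SE 0.17, limma adjusted p 0.00302), while in Col-7 the log2 difference was -0.40 (SE 0.17, adjusted p 0.07). It passed the filter through its untreated arrays. In a limma fit with no filter its adjusted p was 0.0167 in acn1-2 and 0.163 in Col-7. The lines were not shown to differ in this response, since the interaction was -0.33 (SE 0.25, adjusted p 0.661).

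AT1G48660 is a GH3 family gene for which the annotation used here gives no other name. Its intensity was 220.3, 242.2 and 209.8 in acn1-2 with sucrose, against 0.6, 7.0 and 2.0 in untreated acn1-2. In Col-7 it was 199.7, 184.1 and 221.1 with sucrose, against 11.9, 30.5 and 28.1 untreated. All 3 untreated acn1-2 arrays lay at the floor, which makes sucrose at least 15.5-fold higher there. In Col-7, with 1 of 3 untreated arrays at the floor, the log2 difference was 3.12 (SE 0.21).

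The Aux/IAA members that could be tested were IAA18 and IAA34. IAA18 stood at 118.5, 127.9 and 121.7 in acn1-2 with sucrose, against 211.1, 190.2 and 184.4 in untreated acn1-2. It stood at 124.7, 120.7 and 100.2 in Col-7 with sucrose, against 204.2, 211.5 and 201.9 in untreated Col-7. No sucrose array came near an untreated one. IAA18 fell by 0.67 in acn1-2 (SE 0.10, limma adjusted p 0.000141) and fell by 0.84 in Col-7 (SE 0.10, adjusted p 2.78e-05).

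IAA34, which lacks the degron, rose. Its values were 44.0, 40.7 and 44.9 in acn1-2 with sucrose, against 13.9, 15.1 and 20.3 in untreated acn1-2. In Col-7 they were 45.0, 41.5 and 39.1 with sucrose, against 18.5, 12.8 and 15.2 untreated. The lines were nearly alike within each medium, and the untreated arrays sat around the floor, with 1 of 3 at it in each line. The log2 difference was 1.40 in acn1-2 (SE 0.14, limma adjusted p 3.62e-06) and 1.39 in Col-7 (SE 0.14, adjusted p 5.1e-06). IAA34 passed the filter only through its sucrose arrays. In a limma fit with no filter its adjusted p was 0.000122 in acn1-2 and 0.000166 in Col-7. With a pseudocount of 16 in place of the floor, the IAA34 difference was 0.87 in acn1-2 and 0.88 in Col-7, and both stayed past the threshold.

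**Figure D1:**
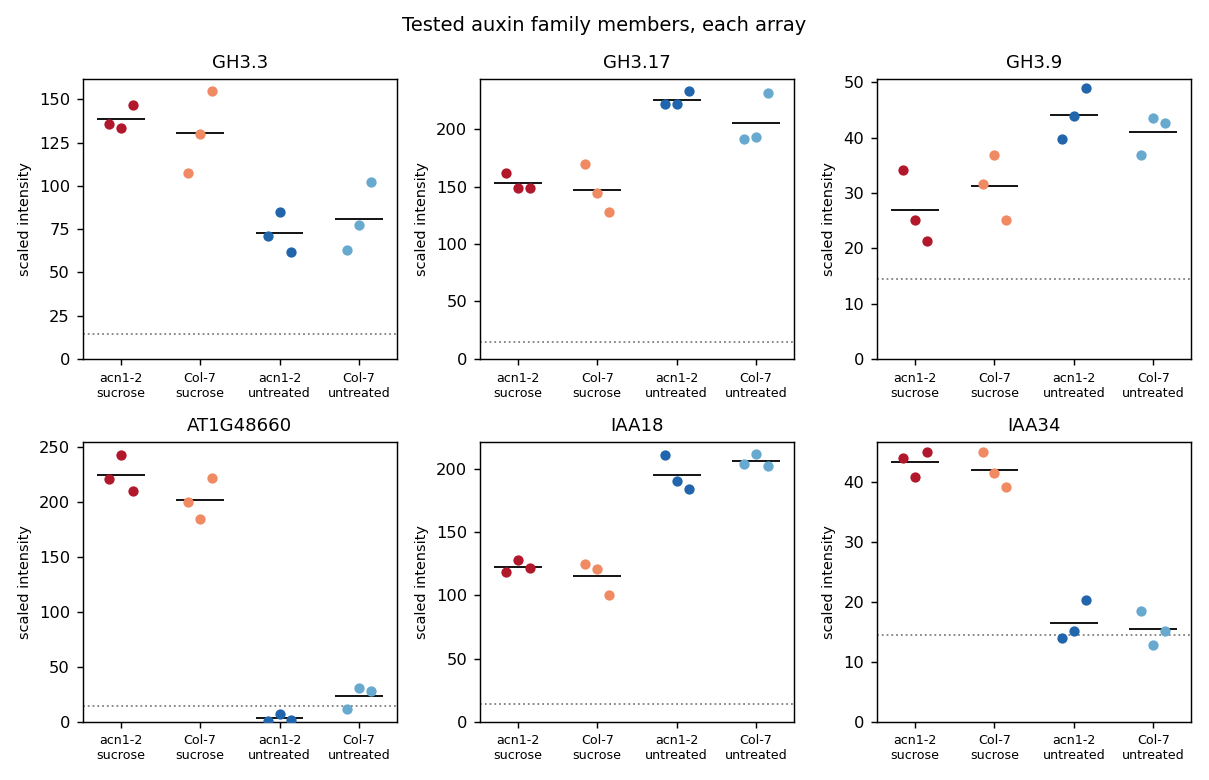
Scaled intensity (linear axis, a scale of its own in each panel) of the 6 tested members on each of the 12 arrays, by group, with group means as bars and the floor of 14.4 as a dotted line. GH3.3, AT1G48660 and IAA34 were higher with sucrose and GH3.17, GH3.9 and IAA18 had lower means with sucrose in both lines.

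Control ratios of RNA quality and tissue markers also differed with the medium. The actin control had a ratio of 3' over 5' signal of 6.01 ± 0.605 in acn1-2 with sucrose and 2.31 ± 0.554 in untreated acn1-2, and 6.40 ± 0.492 in Col-7 with sucrose and 2.90 ± 0.563 in untreated Col-7 (SD, n = 3 each). The same ratio of the GAPDH control moved the other way, at 0.877 ± 0.0486 in acn1-2 with sucrose and 1.243 ± 0.254 in untreated acn1-2, and 0.851 ± 0.0338 in Col-7 with sucrose and 1.153 ± 0.0698 in untreated Col-7 (SD, n = 3 each). The summed intensity of the green tissue markers measured, PRK and RCA (2 of 6 listed), ran from 2900.2 to 3025.2 in acn1-2 with sucrose, against 4497.6 to 7850.4 untreated, and from 2374.3 to 3434.8 in Col-7 with sucrose, against 5547.4 to 6269.0 untreated. The root markers measured, PYK10, EXPA7 and EXPA18 (3 of 8 listed), summed to 2956.3 to 3329.2 in acn1-2 with sucrose, against 2269.9 to 3789.6 untreated. In Col-7 that sum ran from 2876.1 to 2982.9 with sucrose, against 2966.0 to 3271.0 untreated. Most of that sum is PYK10, a beta-glucosidase, which was not called for sucrose. The root hair expansin genes rose with sucrose in both lines. EXPA18 rose by 0.93 in acn1-2 and 0.87 in Col-7 (limma adjusted p 0.00042 and 0.000809). EXPA7 rose by 0.35 and 0.45 (adjusted p 0.0431 and 0.0161). The EXPA7 call was fragile in acn1-2, where it held under 14 of the 23 alternatives of the closing section (adjusted p 0.0842 with no filter). In Col-7 the EXPA7 call held under 22 of 23. Of 4 listed seed markers 0 were named by the annotation used here. The part of these shifts in the members' differences was not tested, and in whole seedlings fewer cells of a type and less RNA per cell cannot be told apart.

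The 7 dimmer members were below the filter, and their values are given with a fit that had no filter and in which 29.6% of 22746 probe sets were called for sucrose in Col-7 and 34.1% in acn1-2. In that fit 3 of the 7 were called in acn1-2 and 0 in Col-7.

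ARR15, the A-type response regulator and sole cytokinin member, had a mean of 26.8, just under the filter. It stood at 40.3, 34.7 and 41.6 in acn1-2 with sucrose, against 21.4, 26.1 and 15.4 in untreated acn1-2. It stood at 27.4, 31.1 and 27.2 in Col-7 with sucrose, against 24.4, 15.7 and 15.7 in untreated Col-7. Sucrose arrays lay above untreated ones in each line, and with sucrose all acn1-2 arrays lay above all Col-7 arrays. The share of all probe sets that separate in this way was not computed, so here and for other genes such separation is a description. With no filter ARR15 rose in acn1-2 by 0.92 (SE 0.22, limma adjusted p 0.012). In Col-7 the log2 difference was 0.65 (SE 0.22, adjusted p 0.0588). Between the lines with sucrose, acn1-2 minus Col-7 was 0.44 (SE 0.22), with an unadjusted p of 0.0795 and an adjusted p of 1.

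IAA20, a degron-less Aux/IAA gene, was at the floor in every untreated array, with values of 1.0 to 1.9 in acn1-2 and 1.1 to 2.0 in Col-7. With sucrose it read 18.8, 20.5 and 22.5 in acn1-2, and 24.0, 19.7 and 8.6 in Col-7. The 1 low Col-7 array was replicate 3, which also stood apart from its group over all genes. These levels made IAA20 at least 1.43-fold higher with sucrose in acn1-2. In Col-7, with 1 of 3 sucrose arrays at the floor, no lower bound can be given. The log2 difference of the floored Col-7 values was 0.40. With no filter the adjusted limma p was 0.0333 in acn1-2 and 0.095 in Col-7.

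IAA29, a gene known to be switched on by phytochrome-interacting factors in shade and warmth, had lower values with sucrose. It read 13.5, 18.7 and 13.3 in acn1-2 with sucrose, against 31.9, 33.1 and 42.9 in untreated acn1-2. It read 13.7, 16.5 and 14.0 in Col-7 with sucrose, against 33.2, 36.0 and 16.6 in untreated Col-7. With sucrose 2 of 3 arrays of each line lay at the floor, so the size of the difference depends on it. With no filter IAA29 fell by 1.18 in acn1-2 (SE 0.28, limma adjusted p 0.0105), and the Col-7 difference was -0.85 (SE 0.28, adjusted p 0.0504). The low untreated Col-7 array, replicate 3, narrows the gap in that line.

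The other dim members lay near or under the floor or did not pass the test. IAA31 lay between 21.3 and 29.7 over the 6 sucrose arrays and between 18.5 and 26.0 over the 6 untreated ones, with a no-filter log2 difference of 0.15 in acn1-2 and 0.18 in Col-7 (limma adjusted p 0.494 and 0.427). IAA30 ran from 12.9 to 18.7 with sucrose and from 9.1 to 17.6 untreated, all close to the floor. IAA33, which lacks the degron too, was at the floor on all 6 sucrose arrays and on 2 of 6 untreated ones. GH3.1 was at the floor on 5 of 6 arrays in each medium, and no change was detectable at this brightness.

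**Figure D2:**
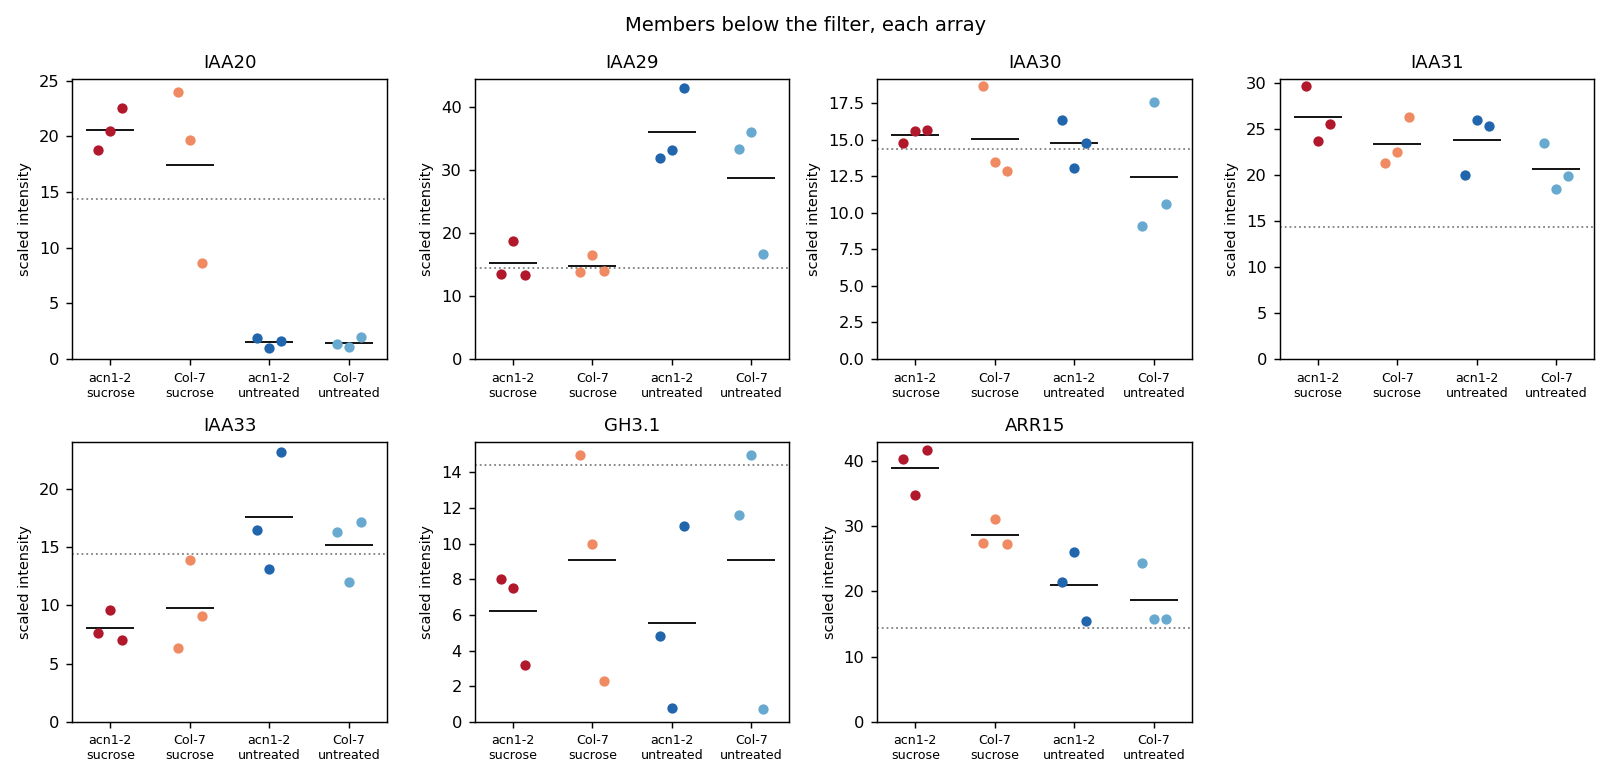
Scaled intensity (linear axis, a scale of its own in each panel) of the 7 members below the filter on each array, by group, with group means as bars and the floor of 14.4 as a dotted line. IAA20 and ARR15 lay higher and IAA29 lower with sucrose, while IAA30 and GH3.1 stayed around or under the floor.

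Between the lines no member differed past the threshold. Without sucrose, limma called 0 of the 6 tested members between acn1-2 and Col-7, where 0.545% of all tested probe sets were called. At an unadjusted p under 0.05 stood 1 of the 6, against 1984 of all 13764. With sucrose it called 0 of 6 against 0.211% of all, and an unadjusted p under 0.05 was found for 0 of the 6, against 658 of 13764. For the interaction, the sucrose response of acn1-2 minus that of Col-7, it called 0 of 6 against 0.0581% of all, and an unadjusted p under 0.05 was found for 1 of the 6, against 1380 of 13764. With no filter, 0 of all 13 members were called between the lines without sucrose (0.185% of all probe sets), with sucrose (0.123%) or in the interaction (0.0484%). With such low background shares, 0 calls does not set these genes apart.

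The intervals show how much difference the arrays leave room for. IAA18 differed by -0.08 without sucrose (acn1-2 minus Col-7, 95% interval -0.30 to 0.15) and by 0.10 with it (-0.13 to 0.32). IAA34 differed by 0.04 (-0.26 to 0.34) without sucrose and by 0.05 (-0.25 to 0.35) with it. Both intervals for each gene span 0 and stay well inside the size of the sucrose response. GH3.3 was less tightly bounded, at -0.14 (-0.53 to 0.25) without sucrose and 0.10 (-0.29 to 0.49) with it. GH3.17 differed by 0.14 (-0.11 to 0.39) without sucrose and by 0.06 (-0.19 to 0.31) with it. GH3.9 differed by 0.11 (-0.27 to 0.48) without sucrose and by -0.23 (-0.60 to 0.15) with it.

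AT1G48660 was the exception in shape. Without sucrose its 3 acn1-2 arrays (0.6 to 7.0) all lay at the floor, and so did 1 of 3 Col-7 arrays (11.9). The other Col-7 arrays read 30.5 and 28.1. With values raised to the floor, acn1-2 minus Col-7 was -0.68, which is not a lower bound. The adjusted limma p was 0.192. The call turned on how values near the floor were handled: AT1G48660 had an adjusted p of 0.0108 with the pseudocount, 0.0415 with no floor and 0.00125 without Col-7 untreated replicate 1, the array on which it read 11.9. Its interaction, which holds the sucrose values that chose the gene, was 0.84 (SE 0.30, adjusted p 0.395), and 1.18 (adjusted p 0.0181) without that same array. The untreated arrays are also part of the sucrose response that chose AT1G48660, so its line difference without sucrose is a description too. With sucrose the lines overlapped, at a log2 difference of 0.15 (95% interval -0.31 to 0.62).

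**Figure D3:**
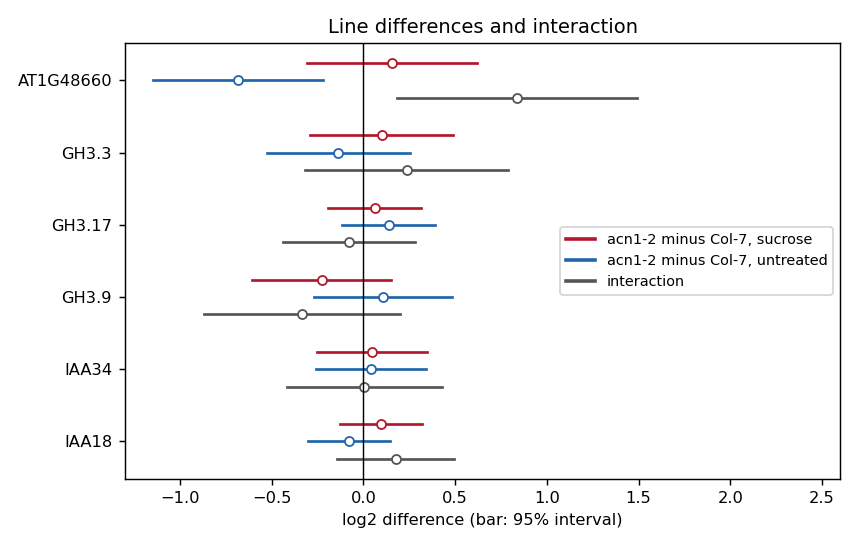
Log2 difference between the lines (acn1-2 minus Col-7) with and without sucrose, and the interaction, for the 6 tested members, as points with 95% intervals. Open points did not pass an adjusted p of 0.05, and all 18 are open; AT1G48660 without sucrose lies farthest below 0.

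Members of the same families that the annotation names differently, and other genes of the 3 hormone pathways, came from lists of loci. Of 121 family loci listed, the annotation named 15, and of the 29 auxin, 21 gibberellin and 22 cytokinin pathway loci it named 2, 6 and 2. What follows therefore covers a small share of each pathway.

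For auxin, WES1 (also called GH3.5), which conjugates auxin and salicylic acid, had 209.3, 200.3 and 204.1 in acn1-2 with sucrose, against 250.6, 250.3 and 284.6 untreated. In Col-7 it had 214.7, 232.1 and 221.5 with sucrose, against 234.7, 253.8 and 242.3 untreated. All sucrose arrays lay below all untreated arrays within each line. WES1 fell by 0.35 in acn1-2 (SE 0.09, limma adjusted p 0.00508), and its Col-7 difference was -0.13 (SE 0.09, adjusted p 0.256). The interaction did not pass (-0.22, adjusted p 0.565). The auxin-synthesis genes YUC4 and YUC6 were at the floor on 5 of 6 sucrose arrays each and below the filter. Without sucrose YUC4 read 16.2, 17.9 and 18.3 in acn1-2, all above the floor, against 12.2, 8.7 and 6.2 in Col-7, all at it, which made acn1-2 at least 1.21-fold higher (adjusted p of YUC4 0.2 in the limma fit with no filter).

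For cytokinin, RR16 (also called ARR16), an A-type regulator like ARR15, rose in both lines. It stood at 37.4, 42.3 and 41.7 in acn1-2 with sucrose, against 20.0, 20.3 and 22.3 untreated, and at 39.7, 36.3 and 41.6 in Col-7 with sucrose, against 20.6, 21.3 and 28.9 untreated. The log2 difference of RR16 (ARR16) was 0.96 in acn1-2 (SE 0.13, limma adjusted p 4.46e-05) and 0.75 in Col-7 (SE 0.13, adjusted p 0.000378). RR16 (ARR16) passed the filter, at a mean of 31.0, only through its sucrose arrays, and with the pseudocount its difference was 0.61 in acn1-2 and 0.48 in Col-7, both past the threshold. The B-type regulator RR18 (ARR18) was at the floor on all 6 sucrose arrays. The N-glucosyltransferases that inactivate cytokinin were lower: UGT76C1 fell by 0.49 in acn1-2 and fell by 0.39 in Col-7 (limma adjusted p 0.00295 and 0.0131). UGT76C2 fell by 0.69 in Col-7 (adjusted p 0.0228), a call that ended with no filter (0.0859), without Col-7 untreated replicate 3 (0.0893) and without Col-7 sucrose replicate 3 (0.115), and its acn1-2 difference was -0.47 (adjusted p 0.0969). The UGT76C1 call in Col-7 ended without Col-7 untreated replicate 2 (0.061).

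For gibberellin, 4 of the 6 named genes were tested. With sucrose 1 rose and 2 fell in acn1-2 while 0 rose and 1 fell in Col-7. Of all tested probe sets 56.9% were called for sucrose in acn1-2 and 50.2% in Col-7. Counts over 4 genes do not set them apart from those shares. SPY, a repressor of gibberellin signalling, read 76.4, 55.3 and 64.6 in acn1-2 with sucrose, against 87.6, 101.4 and 89.6 untreated. SPY fell by 0.51 in acn1-2 (SE 0.12, limma adjusted p 0.00291), whereas in Col-7 its difference was -0.07 (SE 0.12, adjusted p 0.644) and its interaction was -0.44 (adjusted p 0.423). SLY2 (SNE), an F-box relative of the DELLA-targeting SLY1, fell by 0.42 in acn1-2 and fell by 0.39 in Col-7 (adjusted p 0.0285 and 0.0425). The receptor gene GID1A rose by 0.41 in acn1-2 (adjusted p 0.0469), with -0.08 in Col-7 (adjusted p 0.713). The SNE and GID1A calls were fragile, as the closing section gives. SLY1 differed by 0.16 in acn1-2 and 0.00 in Col-7 (adjusted p 0.243 and 0.992), and the receptor genes GID1B and GID1C were below the filter. Between the lines, limma called 0 of these 4, of the 2 cytokinin genes, and of WES1 and RR16 in either medium or in the interaction; SPY had an unadjusted p under 0.05 in the interaction.

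**Figure D4:**
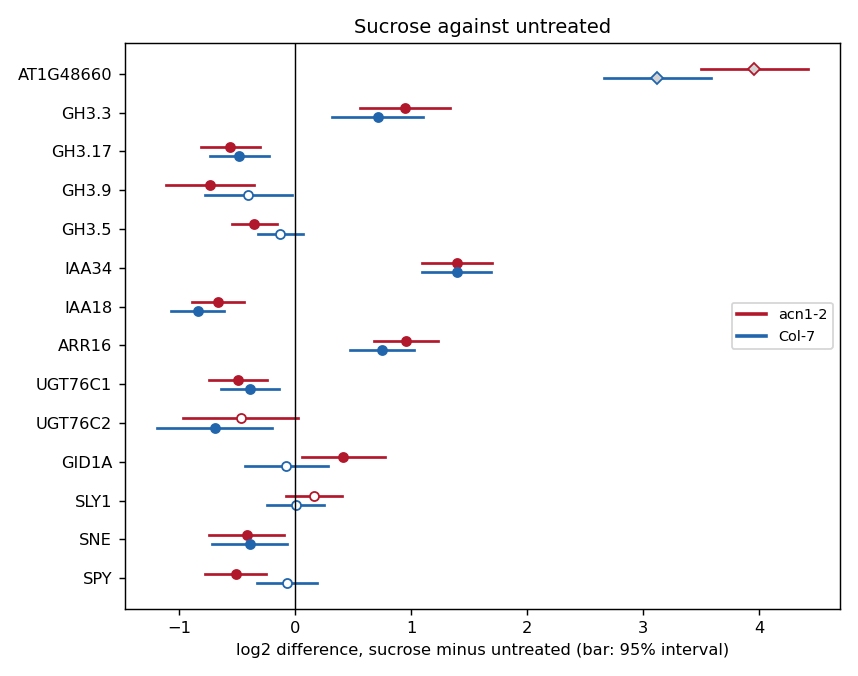
Log2 difference of sucrose minus untreated in acn1-2 and in Col-7 for the 6 tested members and 8 other hormone genes (GH3.5 is WES1, ARR16 is RR16, SNE is SLY2), as points with 95% intervals; filled points passed an adjusted p of 0.05, and grey diamonds are AT1G48660, a description. AT1G48660, IAA34, GH3.3 and ARR16 lie above 0 in both lines, and GH3.17, IAA18, UGT76C1 and SNE lie below 0 in both.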

How the data were processed

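The authors deposited linear intensities, 1 for each probe set on each array, scaled so that every array had a 2% trimmed mean of about 100.0. Sources used here do not name the summarising software. Groups and replicate numbers came from the sample labels. The 64 control probe sets were left out, values under 14.4 were raised to it, and log2 values were taken with no further normalization. Probe sets with a mean of at least 29.1 were tested (13764). All 4 groups were fitted together with limma 3.58.1 in R 4.3.3 (8 residual degrees of freedom, eBayes without trend), two-sided, with Benjamini-Hochberg adjustment over all tested probe sets, and calls needed an adjusted p under 0.05. The fit was also run on simulated arrays with independent normal noise. These held no floor and no outlying arrays, so the run says nothing about either. The number of arrays limits the precision. Acn1-2 untreated replicate 3 and Col-7 sucrose replicate 3 stood apart (SD of the deviation from the group mean 0.245 and 0.203, against 0.115 to 0.19 elsewhere). Genes were named through the platform annotation and RefSeq locus tags. Members called for sucrose with a log2 difference of at least 1 were to be described array by array, filled up with the next largest; all tested members were, and the dim ARR15, IAA20 and IAA29 were chosen after their values were seen. The members and lists were chosen with earlier results of these data known. Same-numbered arrays did not deviate together (correlation over 0.1 in 3 of 18 pairs, median 0.00), so numbers were not taken as pairs. The alternatives are listed in the closing section. Figures were drawn with matplotlib 3.10.9.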

Additional observations from a re-analysis of the deposited data

How the results depend on the processing

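Under each alternative that tested the gene, sucrose calls of the 5 tested members chosen by symbol kept their direction and side of the threshold. AT1G48660 is left out of this statement, because its sucrose response chose it. Some alternatives changed the floor (none, or a pseudocount in its place), the filter (stricter, or none) or the normalization (quantile). Others used array weights, a variance trend, scanner background as a covariate, a replicate block, or only the groups compared. The rest left out each array in turn, or both arrays that stand apart. GH3.9 and IAA34 were not tested with the stricter filter, and ARR15, IAA20 and IAA29 were tested only with no filter. With no filter the largest adjusted p for sucrose was 0.000166 for IAA34, 0.00214 for RR16 (ARR16) and, in acn1-2, 0.0167 for GH3.9. In acn1-2 6 tested members passed, AT1G48660 included (56.9% of 13764 probe sets). With no filter 9 of 13 members passed, again with AT1G48660 (34.1% of 22746 probe sets). With the stricter filter 4 of 4 passed (6093 of 9271 probe sets). In Col-7 5 passed, AT1G48660 included (50.2% of 13764 probe sets), 4 with the stricter filter (5641 of 9271), and 5 to 6 with 1 array left out. GH3.9 passed without Col-7 sucrose replicate 2 (adjusted p 0.034) or acn1-2 sucrose replicate 1 (0.0402). With the replicate number as a block the counts were 5 in Col-7, 6 in acn1-2 and 0 elsewhere, so no count changed. Between the lines without sucrose 0 members were called, but 1 (AT1G48660) with no floor and 1 with the pseudocount, and 0 to 1 with 1 array left out. The interaction gave 0, and 0 to 1 with 1 array left out. With sucrose the lines gave 0 in every alternative.

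Among other genes, the GID1A call in acn1-2 ended under 13 of 23 alternatives (GID1A adjusted p 0.201 without acn1-2 untreated replicate 3). The SNE call ended under 10 of 22 in Col-7 (SNE 0.197 without Col-7 untreated replicate 2) and 6 of 22 in acn1-2 (SNE 0.126 without acn1-2 sucrose replicate 3). UGT76C2 passed in acn1-2 under 3 of 23: with array weights (UGT76C2 adjusted p 0.0102), without acn1-2 untreated replicate 3 (0.0179), and without that array and Col-7 sucrose replicate 3 (0.00426). Over all probe sets, calls between the lines with sucrose were 29, against 164 with array weights, 63 without both arrays that stand apart, 17 with no floor and 10 with the stricter filter. Without sucrose they were 75, against 42 with no filter, 25 with only the groups compared, 41 with the block and 46 with the scanner background, and 28 to 92 with 1 array left out. Interaction calls were 8, against 22 with array weights, 18 with the variance trend, 13 with the stricter filter or without both arrays that stand apart, and 4 to 19 with 1 array left out. Signal near the floor limits IAA20, IAA29, IAA30, IAA33, GH3.1 and untreated AT1G48660.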
